A study of Sorghum bicolor with 24 samples.

Results

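The WAT1-related transporters of sorghum are the genes whose closest Swiss-Prot protein, in the deposited annotation, carries WAT1 in its name. That rule found 55 genes among the 34129 Sobic identifiers that both deposited tables share, and the values of the libraries played no part in it. The version suffix of the identifiers is left out here. In 53 of the 55 members the annotation also lists an EamA Pfam domain, the transporter fold of this family. The closest proteins are from Arabidopsis and number 17. Of the 55 members, 16 are closest to At5g64700, 6 to At5g07050, 5 each to At1g09380 and At3g30340, 4 to At3g45870, 3 each to At4g30420, At5g47470 and WAT1 itself, and 2 to At4g01440. The other 8 proteins have 1 member each. These assignments rest on similarity, and for some members the second annotation in the tables gives another family protein.

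WAT1 (WALLS ARE THIN 1) is an Arabidopsis membrane protein of the vacuole that exports auxin, and plants without it form thin secondary walls in stem fibres. Its relatives in Arabidopsis are also called UMAMITs (usually multiple acids move in and out transporters), and several of them carry amino acids across membranes, for example out of cells that load the phloem or feed seeds. The family belongs to the drug and metabolite transporter superfamily, and for most members in grasses the substrate is not known from the annotation.

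RNA sequencing of sorghum roots gave 24 libraries in 8 groups of 3. One table (the P table) holds libraries labelled phosphorus deficiency at day 4 and at day 7, with libraries labelled mock at the same days. The other table (the GR table) holds roots given GR245DS, a synthetic strigolactone analogue, for 3 h and 6 h, with mock at the same times. The sources used here give no genotype, growth conditions, plant age or dose, and do not say whether the replicates came from separate plants. The p-values therefore set group differences against the spread between these libraries, which may be only technical.

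Libraries held 32631226 to 45292506 counts in the P table and 31677623 to 38706195 counts in the GR table. The P labels run against the phosphate genes: 21 genes annotated as SPX proteins or inorganic phosphate transporters summed to between 285 and 296 CPM (read counts scaled to a common library size) in libraries labelled P deficiency at day 4 and between 294 and 433 CPM at day 7, against 5750 to 6820 and 5560 to 7590 CPM in libraries labelled mock. Of the 19 that could be tested, 15 were lower and 2 higher in libraries labelled P deficiency at each day. Every direction in the P table below is therefore between libraries as labelled. Root markers (25 genes for Casparian strip proteins, root hair proteins and the sorgoleone pathway methyltransferase) were present in all groups. They summed to 529 to 621 and 550 to 609 CPM in libraries labelled P deficiency at days 4 and 7, against 1060 to 1320 and 870 to 1250 CPM in libraries labelled mock, and 5 to 8 of the 25 were at 0 throughout a group. The 27 photosynthesis genes used as leaf markers summed to 49.6 to 55.1 and 45.9 to 57.3 CPM in libraries labelled P deficiency, against 14.5 to 18.5 and 22.7 to 27.7 CPM in libraries labelled mock, with 4 to 7 of them at 0 in a group. Their part in the results was not tested. In whole roots, fewer cells of a type and less RNA per cell cannot be told apart.

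Of the 55 members, 9 had no count in any of the 24 libraries, among them Sobic.003G096100, 1 of the 3 members closest to WAT1 itself. The filter on low counts left 41 members for testing in the P table. Of these, 37 could also be tested in the GR table and 4 could not, and 14 members entered no test. No untested member exceeded 16 counts in a library of the P table, or 24 counts in one of the GR table. Each library held counts for 33 to 44 members.

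On the authors' FPKM scale, which corrects for gene length and so allows levels of different genes to be set side by side, a few members carried most of the family's expression. In the P table the highest mean level over 12 libraries was 155 ± 28.8 FPKM (SD) for Sobic.003G327900, closest to At5g07050. It was followed by Sobic.002G322900 (At5g64700 type) at 97.4 ± 104 FPKM, Sobic.010G258300 (At3g45870 type) at 83.0 ± 35.0 FPKM and Sobic.004G311000 at 79.2 ± 18.4 FPKM. Sobic.004G311000 is closest to At1g44800, known in Arabidopsis as SIAR1, a transporter that moves amino acids in both directions. The 2nd to 4th places overlap within their spread, and the SD of Sobic.002G322900 exceeds its mean because its level divides by label. In the GR table, fitted and scaled apart from the first, the order was Sobic.003G327900 at 107 ± 16.9 FPKM, Sobic.002G207400 (At4g30420 type) at 63.1 ± 9.22, Sobic.004G311000 at 54.0 ± 13.3 and Sobic.010G258300 at 50.3 ± 12.4 FPKM, of which the last 3 overlap.

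Summed over all 55 members, expression came to 615 ± 32.8 FPKM in libraries labelled P deficiency at day 4, against 760 ± 145 FPKM in libraries labelled mock (SD, n = 3 each). At day 7 the sums were 630 ± 9.08 FPKM in libraries labelled P deficiency and 817 ± 178 FPKM in libraries labelled mock. The libraries of the 2 labels overlapped at both days, since 1 mock library at each day had a sum of 596 or 639 FPKM. As CPM, which is not corrected for gene length, the sums did not overlap: they were 1034 to 1151 at day 4 and 1128 to 1203 at day 7 in libraries labelled P deficiency, against 1184 to 1647 and 1314 to 1913 in libraries labelled mock. Without Sobic.002G322900 the FPKM sums at days 4 and 7 were 611 ± 32.2 and 626 ± 8.67 in libraries labelled P deficiency. In libraries labelled mock they were 584 ± 97.1 and 611 ± 114 FPKM. The FPKM means were thus in the other order, but by less than the SD of the mock libraries. The libraries of the 2 labels overlapped at both days. Sums without this gene were not taken as CPM, so this order holds for the FPKM means only. Sobic.002G322900 made up 0.618% ± 0.0925 and 0.6% ± 0.0675 of the family's FPKM in libraries labelled P deficiency, against 22.9% ± 2.1 and 24.9% ± 2.7 in libraries labelled mock. Sobic.010G258300 made up 19.8% ± 2.31 and 17.3% ± 0.908 in libraries labelled P deficiency, against 6.44% ± 1.23 and 6.85% ± 2.06 in libraries labelled mock.

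**Figure D1:**
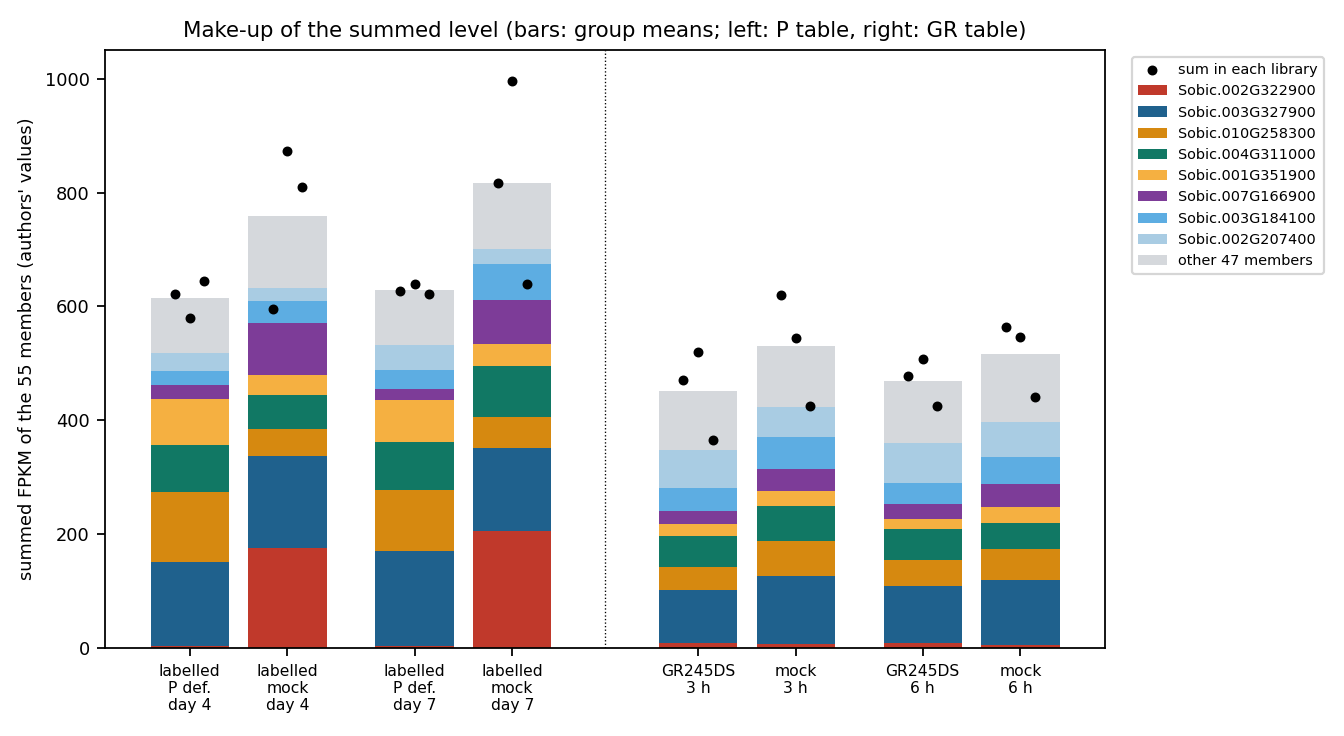
Summed FPKM (the authors' values) of the 55 members in each of the 8 groups, as stacked group means with 8 members shown by colour, and the sum in each library as points. Sobic.002G322900, at the foot of the bars, is broad only in the mock libraries of the P table (22.9% and 24.9% of the sum) and at most 1.82% of the sum in any group of the GR table.

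The first question is how the members differ between libraries labelled P deficiency and libraries labelled mock. At day 4, 23 of the 41 tested members passed an adjusted p of 0.05, 9 of them higher and 14 lower in libraries labelled P deficiency. Over all 25137 genes tested 38.6% passed, 20.3% higher and 18.4% lower. With a change of at least 2-fold also required, 6 members were higher and 12 lower, where 18.6% of all genes passed, 8.14% higher and 10.5% lower. Over the tested members the log2 fold changes had a median of -0.17, against 0.02 for all genes. At day 7, 25 of the 41 passed, 11 higher and 14 lower, where 35.6% of all genes passed, 17.4% higher and 18.2% lower. At least 2-fold, 5 members were higher and 12 lower at day 7, where 17.9% of all genes passed, 6.86% higher and 11.0% lower, and the median was -0.25, against -0.02. The libraries of the 2 labels did not overlap for 10 members that were higher and 15 that were lower at day 4, against 27.6% and 24.9% of all genes. At day 7 this held for 12 and 15 members, against 22.9% and 23.1% of all genes.

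Each day has its own libraries. At both days 9 members were higher and 13 lower in libraries labelled P deficiency, and 0 passed in opposite directions, where 13.7% of all genes were higher at both days, 13.8% lower at both and 0.0915% opposite. Sobic.010G004200 passed at day 4 alone, Sobic.006G082300, Sobic.009G006400 and Sobic.009G181700 at day 7 alone, and 15 tested members at neither day. No member passed the test of the difference between the days themselves (edgeR interaction, smallest adjusted p = 0.295, for Sobic.009G136100). At an unadjusted p under 0.05 that test had 4 of 41 members and 2091 of 25137 genes. At the adjusted threshold it passed 0.465% of all genes, and the DESeq2 interaction fit passed no member either.

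**Figure D2:**
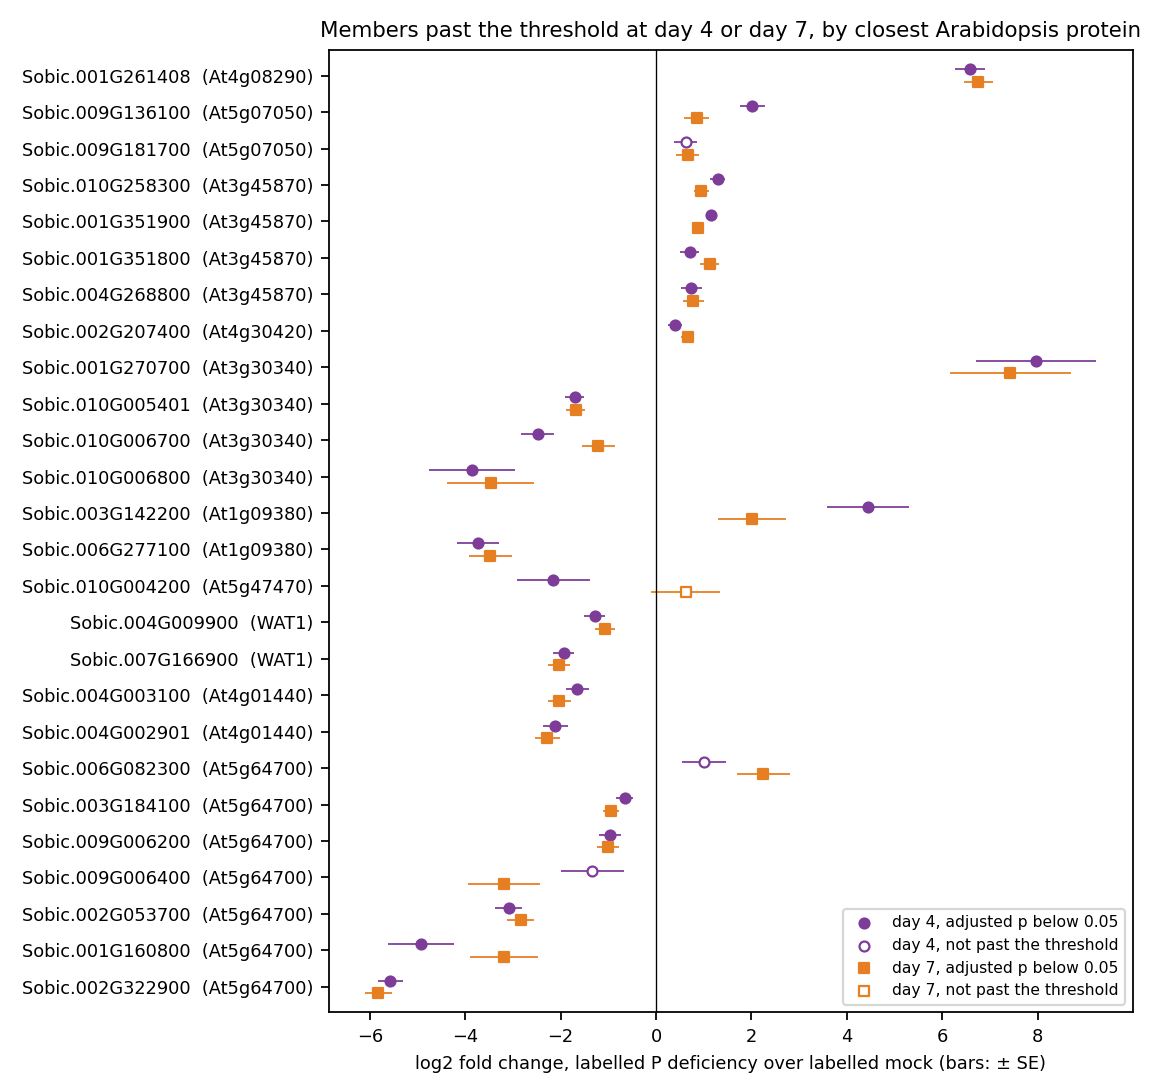
Log2 fold change (± SE) between libraries labelled P deficiency and libraries labelled mock for the 26 members past the threshold at day 4 (circles) or day 7 (squares), ordered by the closest Arabidopsis protein. Filled symbols passed an adjusted p of 0.05. The 4 members of the At3g45870 type lie right of zero and the 2 tested members closest to WAT1 lie left of it at both days.

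The highest ratio to mock among members counted in both labels belonged to Sobic.001G261408, the single member closest to At4g08290 and the gene given as the marker of the family. Its level was 27.1, 22.9 and 19.8 CPM in the 3 P deficiency libraries at day 4, against 0.123, 0.389 and 0.208 CPM in those labelled mock. At day 7 it was 22.2, 24.5 and 29.1 CPM in libraries labelled P deficiency, against 0.147, 0.223 and 0.339 CPM in mock. The groups stood far apart at both days, with values near 0 under the mock label. The log2 fold change was 6.58 ± 0.31 at day 4 (SE; 96.9-fold, edgeR adjusted p = 8.12e-09) and 6.76 ± 0.31 at day 7 (107-fold, adjusted p = 5.71e-09). In the GR table, which was scaled separately, the gene ranged from 1.63 to 19.2 CPM.

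Over the 12 libraries of the P table, the members whose log2(CPM + 1) followed Sobic.001G261408 most closely were Sobic.001G351900 (Pearson r = 0.971), Sobic.010G258300 (r = 0.948) and Sobic.004G268800 (r = 0.917), all of the At3g45870 type. Among all tested genes the closest were Sobic.003G126500, annotated as a mitochondrial hydroxymethylglutaryl-CoA lyase (r = 0.996), Sobic.005G203900, a glutaredoxin (r = 0.996), and Sobic.006G256200, a Myb factor of the PHL type (r = 0.995). In the 12 libraries of the GR table the closest members were Sobic.001G207800 (r = 0.759), Sobic.001G351900 (r = 0.383) and Sobic.001G270700 (r = 0.28). Replicate 3 stood apart in that table: Sobic.001G261408 had a median of 17.2 CPM in its 4 libraries, against 6.73 CPM in the other 8, and the first 2 of these members were the 2 tested members that were higher in replicate 3 in all 4 groups. Among all genes there the closest were Sobic.003G283800, annotated as the chloroplast protein VTE6 (r = 0.956), Sobic.003G375500, a PHD finger protein (r = 0.937), and Sobic.002G006401 (r = 0.931), which has no Swiss-Prot name. Sobic.001G351900 was among the 3 closest members in both tables, and the closest genes overall were others in each table. Any gene that divides by label in one table, or by replicate number in the other, ranks high on this measure.

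The 4 members of the At3g45870 type were all higher in libraries labelled P deficiency at both days, which holds for 20.3% and 17.4% of all genes at days 4 and 7. Sobic.010G258300, one of the most abundant members, had 299.5, 241.9 and 242.5 CPM in libraries labelled P deficiency at day 4, against 107.8, 103.9 and 108.5 CPM in mock. At day 7 it had 264.3, 240.0 and 229.2 CPM, against 158.8, 100.8 and 120.7 CPM in mock. The labels did not overlap, and the mock libraries at day 4 lay within a few CPM of each other. Its log2 fold changes were 1.29 ± 0.15 (SE; edgeR adjusted p = 2.97e-05) and 0.95 ± 0.15 (adjusted p = 0.000349).

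Sobic.001G351900 showed the same order at a lower level. It had 116.5 ± 10.3 CPM in libraries labelled P deficiency at day 4, against 52.7 ± 6.29 CPM in mock (SD, n = 3; log2 fold change 1.15 ± 0.11, SE; adjusted p = 5.36e-06). At day 7 it had 111.5 ± 4.36 CPM, against 60.0 ± 3.6 CPM in mock (0.89 ± 0.11, adjusted p = 4.14e-05). Its direct neighbour in the RefSeq gene order, Sobic.001G351800, had 9.29 ± 2.85 CPM in libraries labelled P deficiency at day 4, against 5.68 ± 0.34 CPM in mock (log2 fold change 0.71 ± 0.20). That day 4 call was lost on leaving out any 1 of 3 libraries (log2 fold change 0.42, adjusted p = 0.074, without replicate 3 of P deficiency). At day 7 the neighbour had 11.1 ± 0.723 CPM, against 5.04 ± 0.601 CPM in mock (1.13 ± 0.20, adjusted p = 0.000806). The remaining member of the type, Sobic.004G268800, named here to complete it, had 3.97 ± 0.397 and 4.06 ± 0.173 CPM in libraries labelled P deficiency, against 2.38 ± 0.543 and 2.37 ± 0.371 CPM in mock. Its day 4 call (adjusted p = 0.0162) was lost on leaving out 1 library in 3 cases (adjusted p up to 0.0815).

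**Figure D3:**
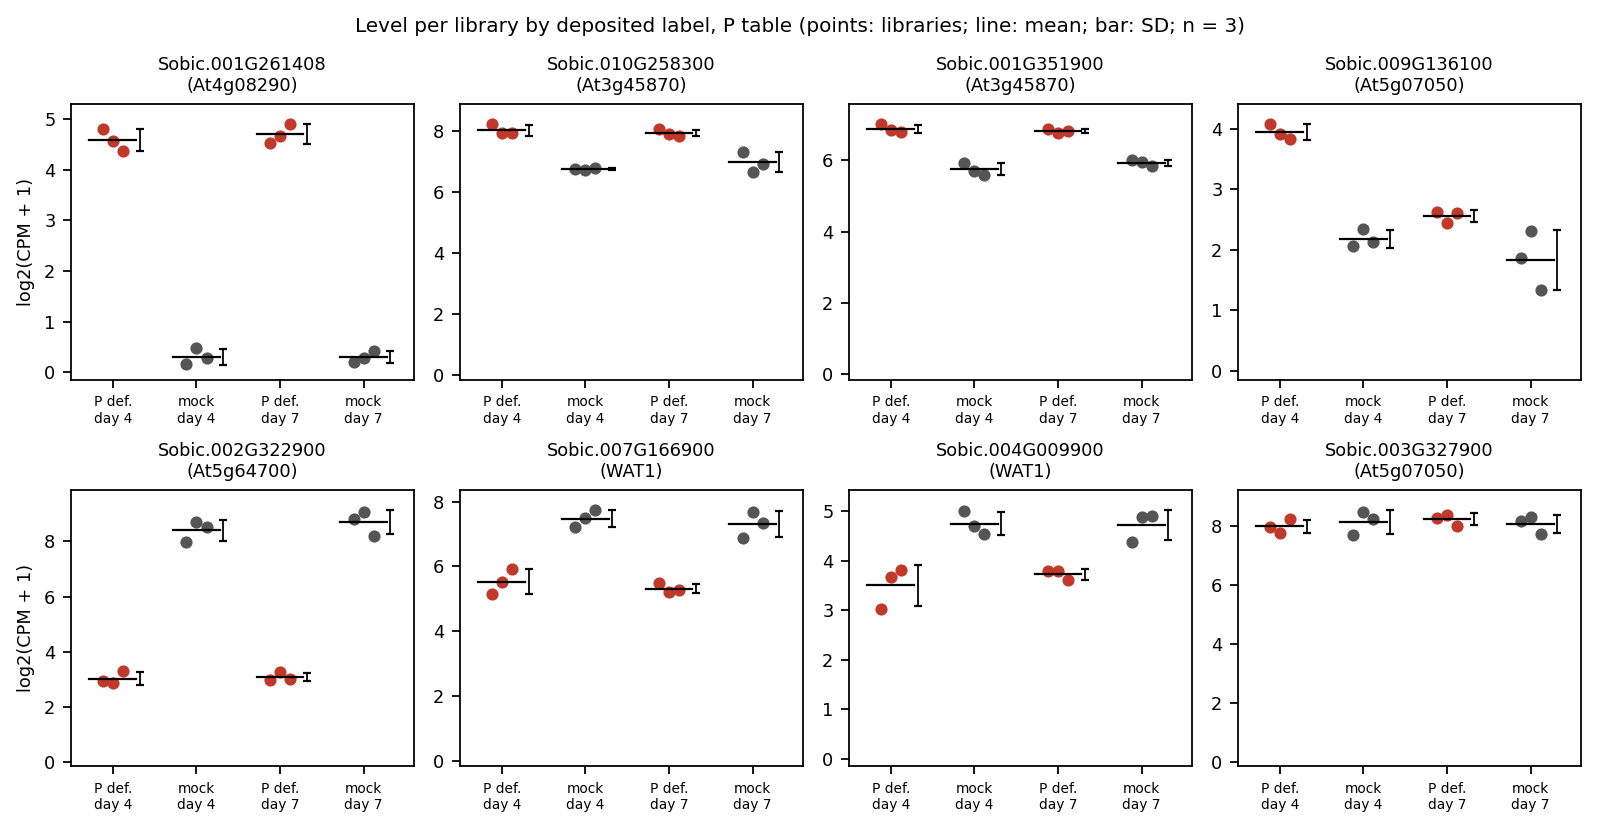
Level in every library of the P table, as log2(CPM + 1), for 8 members by deposited label, with libraries as points, the mean as a line and the SD as a bar (n = 3). In the first 7 panels the 2 labels do not overlap at either day. Sobic.003G327900, in the last panel, lies between 206.2 and 353.1 CPM under both labels.

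The members closest to WAT1 itself, the vacuolar auxin exporter, were lower in libraries labelled P deficiency, both of the 2 that could be tested. Sobic.007G166900, the abundant one, had 34.6, 44.7 and 60.3 CPM in libraries labelled P deficiency at day 4, against 148, 178 and 211 CPM in mock. At day 7 it had 43.6, 35.8 and 37.7 CPM, against 117, 206 and 160.2 CPM in mock. No library labelled P deficiency reached the lowest mock library, and the log2 fold changes were -1.94 ± 0.23 (SE; edgeR adjusted p = 2.67e-05) and -2.04 ± 0.23 (adjusted p = 1.66e-05). Sobic.004G009900, named to complete the type, had 10.6 ± 3.08 and 12.2 ± 0.985 CPM in libraries labelled P deficiency at days 4 and 7, against 26.1 ± 4.51 and 25.7 ± 5.16 CPM in mock. Its log2 fold changes were -1.29 ± 0.22 (adjusted p = 0.000543) and -1.07 ± 0.22 (adjusted p = 0.00209).

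The widest gap on the lower side was that of Sobic.002G322900, of the At5g64700 type. It had 6.66, 6.23 and 8.81 CPM in libraries labelled P deficiency at day 4, against 250.2, 417 and 366 CPM in mock. At day 7 it had 6.9, 8.58 and 7.03 CPM in libraries labelled P deficiency, against 444, 533 and 296 CPM in mock. In mock it was the most abundant member of the family in each of the 6 libraries, while under the P deficiency label Sobic.003G327900 was. The gene was 47.7-fold lower at day 4 (log2 fold change -5.57 ± 0.27, SE; edgeR adjusted p = 1.08e-08) and 56.5-fold lower at day 7 (-5.82 ± 0.28, adjusted p = 7.42e-09). In the GR table it lay between 5.29 and 24.7 CPM, on a separate scale. Its direct neighbour Sobic.002G322800, also of the At5g64700 type, did not pass at either day: it had 10.1 ± 0.966 and 6.46 ± 0.668 CPM in libraries labelled P deficiency, against 7.89 ± 2.22 and 4.56 ± 0.728 CPM in mock. The sources used here do not say how reads shared by such neighbouring copies were counted.

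Of the 16 members of the At5g64700 type, 13 were tested. At day 4, 5 of them were lower and 0 higher in libraries labelled P deficiency, and at day 7, 6 were lower and 1 higher. Of all genes 18.4% were lower and 20.3% higher at day 4, and 18.2% and 17.4% at day 7, which is the background of every count by type. Sobic.002G053700 had 1.219 ± 0.292 and 1.48 ± 0.102 CPM in libraries labelled P deficiency at days 4 and 7, against 10.4 ± 3.15 and 10.6 ± 2.64 CPM in mock (log2 fold changes -3.09 ± 0.29 and -2.84 ± 0.29, adjusted p = 3.49e-06 and 5.97e-06). Sobic.003G184100 was closer between labels, at 39.3 ± 1.55 and 56.2 ± 3.36 CPM under P deficiency, against 62.0 ± 9.25 and 107.8 ± 30.3 CPM in mock (-0.66 ± 0.17 and -0.94 ± 0.17, adjusted p = 0.0088 and 0.000903). The other members of the type past the threshold were chosen for naming after their values were seen: Sobic.001G160800 and Sobic.009G006200 were lower at both days, Sobic.009G006400 was lower at day 7, and Sobic.006G082300 was higher at day 7. Apart from Sobic.009G006200, which had 20.3 ± 2.2 and 16.3 ± 1.47 CPM against 39.4 ± 10.7 and 32.5 ± 9.62 CPM in mock, these genes stayed under 4 CPM in every library. Sobic.009G006200 and Sobic.009G006300 share 1 RefSeq symbol, so their counts may not be those of separate genes.

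The type At4g01440 has 2 members, neighbours in the RefSeq order, and both were lower at both days. Sobic.004G002901 had 7.74 ± 1.52 and 5.64 ± 1.43 CPM in libraries labelled P deficiency at days 4 and 7, against 33.3 ± 7.09 and 27.4 ± 8.26 CPM in mock. Its log2 fold changes were -2.11 ± 0.26 and -2.28 ± 0.26 (SE; edgeR adjusted p = 3.36e-05 and 1.83e-05). Sobic.004G003100 had 9.9 ± 1.4 and 5.76 ± 0.706 CPM under P deficiency, against 31.1 ± 8.89 and 23.5 ± 6.41 CPM in mock, with log2 fold changes of -1.65 ± 0.24 and -2.03 ± 0.24 (adjusted p = 0.000128 and 2.7e-05).

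The At3g30340 type divided. Of its 4 tested members, 3 were lower and 1 higher in libraries labelled P deficiency at both days. Sobic.010G005401 had 3.63 ± 0.436 and 4.6 ± 0.452 CPM in libraries labelled P deficiency at days 4 and 7, against 11.8 ± 1.98 and 14.8 ± 3.57 CPM in mock (log2 fold changes -1.70 ± 0.20 and -1.68 ± 0.20, adjusted p = 2.97e-05 and 2.85e-05). The neighbours Sobic.010G006700 and Sobic.010G006800, named after their values were seen, had at most 0.956 and 0.109 CPM in any library labelled P deficiency, against up to 4.35 and 0.613 CPM in mock; the day 7 call of Sobic.010G006700 (log2 fold change -1.21, adjusted p = 0.0169) was lost in 3 of 18 alternatives. The exception was Sobic.001G270700, also named after its values were seen. It had 1.29, 0.409 and 0.842 CPM in libraries labelled P deficiency at day 4 and 0.37, 0.381 and 0.983 CPM at day 7, against 0 counts in all 6 mock libraries. Against a floor of 3 counts per library it was at least 9.77-fold higher at day 4 and at least 7.45-fold higher at day 7 (adjusted p = 0.00108 and 0.00173). In the GR table the same gene was counted in every library, mock included, at 0.378 to 1.95 CPM.

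Of the 5 members closest to At1g09380, in Arabidopsis UMAMIT25, 2 passed the filter on low counts, and they went opposite ways. Sobic.006G277100 had 0.507 ± 0.0401 and 0.385 ± 0.147 CPM in libraries labelled P deficiency at days 4 and 7, against 6.8 ± 2.91 and 4.34 ± 1.79 CPM in mock (13.4-fold and 11.3-fold lower, adjusted p = 2.63e-05 and 6.21e-05). Sobic.003G142200 was scarce throughout, at 1.13 ± 0.348 and 0.694 ± 0.153 CPM under P deficiency, against 0.0506 ± 0.0467 and 0.161 ± 0.157 CPM in mock. Its log2 fold change was 4.45 ± 0.86 at day 4 (adjusted p = 0.00133) and 2.01 ± 0.72 at day 7 (adjusted p = 0.045). The day 7 call was lost in 12 of 18 alternatives, with an adjusted p as high as 0.121 when replicate 1 of P deficiency at day 7 was left out. Another member, Sobic.004G003300, named after its values were seen, was removed by the filter. It had 10, 10 and 16 counts in libraries labelled P deficiency at day 7, against 0 in each mock library, and 6, 0 and 2 counts at day 4, against 0, 4 and 0 in mock. It was called higher at day 7 without the filter (edgeR adjusted p = 0.0151), with DESeq2 (adjusted p = 0.00385) and on leaving out each of the 12 libraries, where the filter let it pass (adjusted p between 0.0088 and 0.0329).

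Of the 4 tested members closest to At5g07050, 1 was higher in libraries labelled P deficiency at day 4 and 2 at day 7, and 0 were lower. Sobic.009G136100 had 15.97, 14.0 and 13.2 CPM in libraries labelled P deficiency at day 4, against 3.19, 4.07 and 3.38 CPM in mock. At day 7 it had 5.18, 4.41 and 5.09 CPM, against 2.64, 3.95 and 1.51 CPM in mock. The day 4 libraries labelled P deficiency were thus the high ones of the 12. The log2 fold change was 2.02 ± 0.27 at day 4 (SE; edgeR adjusted p = 7.33e-05) and 0.85 ± 0.27 at day 7 (adjusted p = 0.0262), and the day 7 call was lost on leaving out any 1 of 3 day 7 libraries (0.57, adjusted p = 0.0719, without replicate 3 of mock) and in a fit of the 2 day 7 groups alone (adjusted p = 0.0775). The difference between days, -1.17 ± 0.38, had an adjusted p of 0.295. Sobic.009G181700, named as the other member of the type past the threshold, had 3.21 ± 0.329 CPM in libraries labelled P deficiency at day 7, against 2.03 ± 0.192 CPM in mock (0.66 ± 0.24, adjusted p = 0.045), and lost that call in 12 of 18 alternatives. Sobic.010G004200, the tested member closest to At5g47470, had 3.24 ± 1.33 CPM under P deficiency at day 4, against 14.4 ± 7.23 CPM in mock (-2.15 ± 0.76, adjusted p = 0.0384), a call lost in 6 of 18 alternatives. At day 7 its libraries overlapped, at 8.95 ± 8.86 CPM under P deficiency and 5.83 ± 4.88 CPM in mock.

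Sobic.003G327900, with the highest mean FPKM over the 12 libraries but not in the mock libraries alone, did not pass at either day. It had 255.3 ± 40.2 and 300.1 ± 41.1 CPM in libraries labelled P deficiency, against 287.0 ± 74.6 and 272.8 ± 54.4 CPM in mock, and its log2 fold changes of -0.17 ± 0.21 and 0.14 ± 0.21 stayed within their error. Sobic.004G311000, of the SIAR1 type, had 141.9 ± 6.88 and 148.5 ± 13.4 CPM under P deficiency, against 108.1 ± 23.7 and 165.8 ± 48.0 CPM in mock (log2 fold changes 0.39 ± 0.19 and -0.16 ± 0.19, adjusted p = 0.124 and 0.551). Of the At4g30420 type, 1 of 3 tested members passed. Sobic.002G207400 had 52.2 ± 4.4 and 76.0 ± 1.75 CPM under P deficiency, against 39.6 ± 2.58 and 48.2 ± 9.89 CPM in mock (0.40 ± 0.14 and 0.66 ± 0.13, adjusted p = 0.0334 and 0.00207). The smaller day 4 difference was lost on leaving out any 1 of 6 libraries (adjusted p up to 0.162). That gene shares a RefSeq symbol with its neighbour Sobic.002G207500, which did not pass. The other tested member, Sobic.002G207700, named after its values were seen, lay near the threshold on the lower side. It had 2.67 ± 1.38 and 3.83 ± 0.855 CPM under P deficiency, against 4.84 ± 1.43 and 7.11 ± 1.34 CPM in mock (-0.86 ± 0.33 and -0.89 ± 0.33, adjusted p = 0.0589 and 0.0509). It was called lower in 8 of 18 alternatives at day 4 and in 9 of 18 at day 7, with adjusted p between 0.00336 and 0.227 and between 0.0161 and 0.164; DESeq2 and the replicate block were among them at both days.

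Between the mock libraries themselves, 2 members were higher at day 7 than at day 4, where 1.34% of all genes passed and 0.847% were higher at day 7. Sobic.001G502700 (At5g07050 type) had 41.2 ± 9.56 CPM in mock at day 7, against 22.2 ± 2.79 CPM in mock at day 4 (log2 fold change 0.89 ± 0.17, SE; edgeR adjusted p = 0.024). Sobic.003G184100 had 107.8 ± 30.3 CPM at day 7, against 62.0 ± 9.25 CPM at day 4 (0.80 ± 0.17, adjusted p = 0.0407). The count was not stable: leaving out 1 library gave between 0 and 4 members, 0 without replicate 1 of mock at day 4 and 4 without replicate 1 of mock at day 7. DESeq2 gave 6, and a fit of the 2 mock groups alone gave 0.

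The second question is whether GR245DS, applied for hours and not days, moved the same genes. In the fit without a replicate term, 0 of the 37 tested members passed at 3 h and 0 at 6 h, where 1.01% and 0.484% of 24814 genes passed. At an unadjusted p under 0.05 there were 2 members at each time, with 1963 and 1527 of the 24814 genes. DESeq2 also called 0 members at both times. The tested members' median log2 fold changes were -0.01 at 3 h and -0.09 at 6 h. The spread was wide in this table. Sobic.007G166900, the abundant WAT1 type, had 80.7, 48.9 and 13.3 CPM in roots given GR245DS for 3 h, against 122.8, 49.4 and 36.2 CPM in mock (log2 fold change -0.54 ± 0.67, adjusted p = 0.92). Sobic.001G261408 had 6.39, 4.76 and 19.2 CPM with GR245DS at 3 h, against 7.33, 7.15 and 18.1 CPM in mock (-0.10 ± 0.73, adjusted p = 0.992). At 6 h it had 7.07, 4.87 and 16.3 CPM, against 9.11, 1.63 and 8.85 CPM in mock (0.53 ± 0.73, adjusted p = 1.0). With errors of this size, a 2-fold change in either gene could be missed in this fit. In the fit with the replicate number as a block, described below, the errors were smaller and neither gene passed at 3 h. The blocked log2 fold changes were -0.68 ± 0.24 for Sobic.007G166900 (SE, edgeR adjusted p = 0.185) and -0.24 ± 0.36 for Sobic.001G261408 (adjusted p = 0.79).

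Much of that spread followed the replicate number. In 17 of the 37 tested members (45.9%), replicate 3 was lower than replicates 1 and 2 in all 4 groups of the GR table, against 16.3% of all genes; 2 members, Sobic.001G207800 and Sobic.001G351900 (5.41%), were higher in replicate 3 throughout, against 15.9% of all genes. Of the 41 members tested in the P table, 1 was lower and 1 higher in replicate 3 throughout (2.44% each, against 0.609% and 1.09% of all genes). Replicate 3 also held more photosynthesis transcripts: the leaf markers summed to 1100 to 1530 CPM in its 4 libraries, against 391 to 716 CPM in the other 8, while the root markers summed to 347 to 364 CPM, against 369 to 552 CPM. Of the 27 leaf markers, 1 was at 0 throughout each group of the GR table. The part of these transcripts in the members' levels was not tested.

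Since same-numbered libraries deviated together, a fit with the replicate number as a block was made, and it called a few members. At 3 h, 2 members were lower with GR245DS, where 3.13% of all genes passed and 0.576% were lower. Sobic.004G002901, of the At4g01440 type, had 8.1, 6.73 and 2.57 CPM with GR245DS, against 16.9, 15.5 and 4.5 CPM in mock. Within each replicate number the GR245DS library was the lower one, though replicate 3 of mock lay under replicates 1 and 2 of GR245DS. The blocked log2 fold change was -1.04 ± 0.19 (SE; edgeR adjusted p = 0.0121), against -1.08 ± 0.61 (adjusted p = 0.747) without the block. With replicate 3 left out of all groups, an alternative chosen after seeing the data, it was -1.13 ± 0.18 (adjusted p = 0.0226); this was 1 member of those tested, where 1.47% of all genes passed.

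The other member called at 3 h under the block was Sobic.010G258300, of the At3g45870 type. It had 66.1, 100.1 and 110.8 CPM with GR245DS, against 107.1, 143.9 and 139.8 CPM in mock, again lower in each of the 3 pairs (blocked log2 fold change -0.52 ± 0.11, adjusted p = 0.0345; without the block -0.50 ± 0.24, adjusted p = 0.664). At 6 h the block called 1 member, Sobic.001G351900, also of the At3g45870 type, where 2.05% of all genes passed and 0.52% were lower. It had 23.0, 26.3 and 34.7 CPM with GR245DS, against 37.9, 34.8 and 52.7 CPM in mock (blocked log2 fold change -0.58 ± 0.13, adjusted p = 0.0479; without the block -0.58 ± 0.23, adjusted p = 0.678). Without replicate 3 neither of these 2 passed, at log2 fold changes of about the same size (-0.59 ± 0.25 and -0.57 ± 0.17, adjusted p = 0.395 and 0.321), and 0 members did at 6 h, where 0.533% of all genes passed. At 6 h Sobic.004G002901 had 8.49, 7.22 and 3.82 CPM with GR245DS, against 15.9, 15.8 and 4.91 CPM in mock, and a blocked adjusted p of 0.0566. No member passed the test of the difference between 6 h and 3 h, nor that between mock at 6 h and mock at 3 h (0% of all genes in each), whether or not the block was used. At an unadjusted p under 0.05 the fit without the block had 0 members in each, with 289 and 344 of all genes. The blocked fit had 1 and 2 members, with 852 and 1182 of all genes. DESeq2 called 0 members in each.

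**Figure D4:**
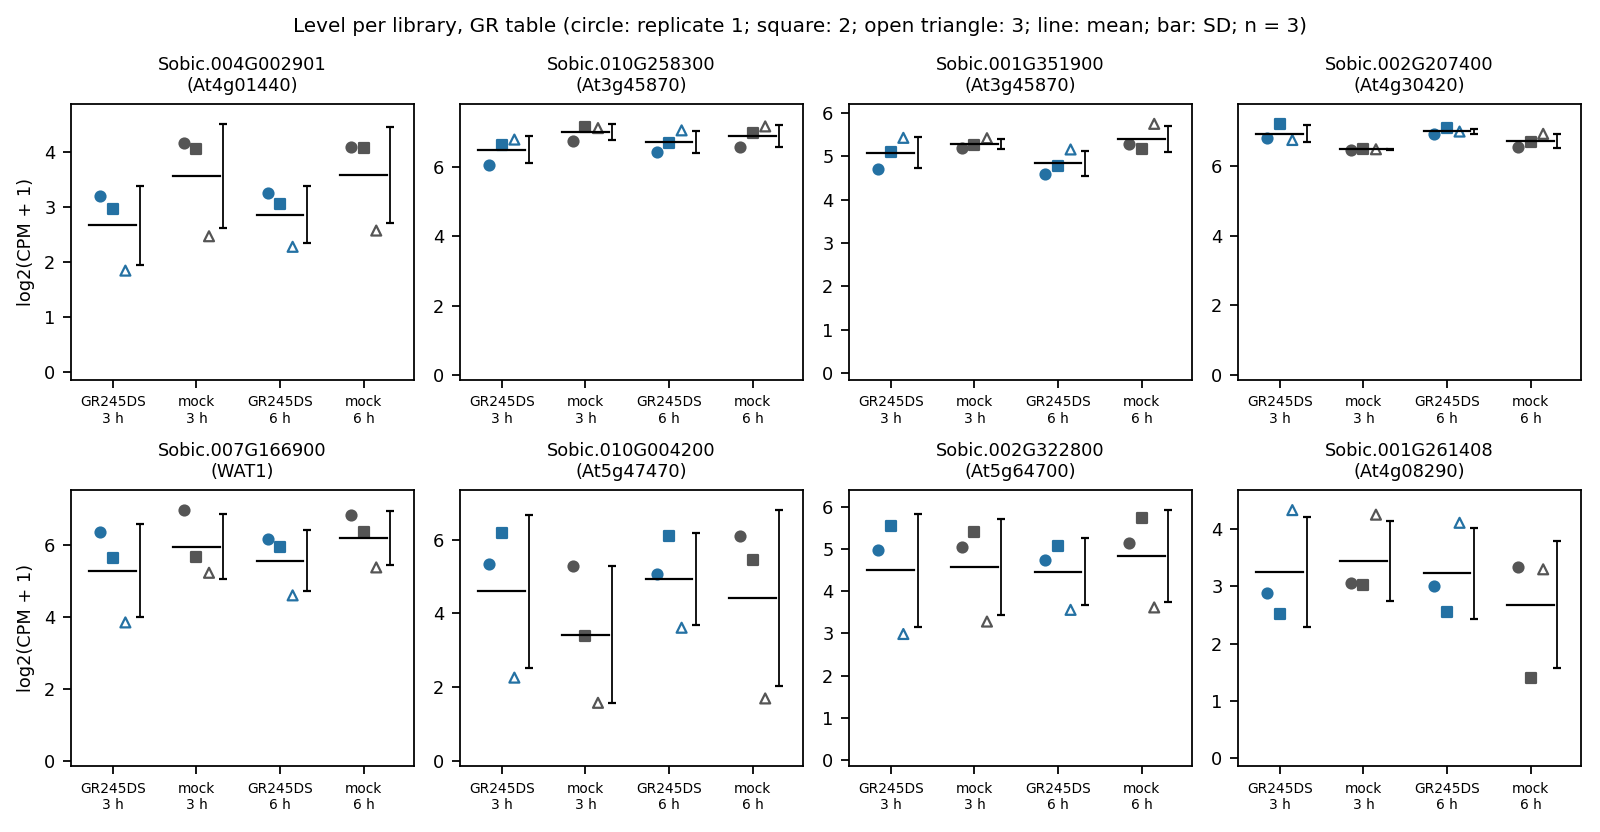
Level in every library of the GR table, as log2(CPM + 1), for 8 members, with circles, squares and open triangles for replicates 1, 2 and 3, the mean as a line and the SD as a bar (n = 3). For Sobic.004G002901, Sobic.007G166900, Sobic.010G004200 and Sobic.002G322800 the triangle is the lowest point in each of the 4 groups.

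Set side by side, the values of 2 of the 3 members called under the block differ in sign between the tables. Sobic.010G258300 and Sobic.001G351900 were higher in libraries labelled P deficiency and lower with GR245DS, while Sobic.004G002901 was lower in both. These signs follow the P labels as deposited, which run against the phosphate genes, and exchanged labels would invert every P sign. The tables were scaled and fitted apart, and the difference between treatments was not tested.

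Other genes of amino acid and auxin transport and of the secondary wall were counted from lists set by annotation words. Beside the counts of each list stand the shares of all genes tested: 20.3% were higher and 18.4% lower in libraries labelled P deficiency at day 4, and 17.4% higher and 18.2% lower at day 7. Of 69 tested amino acid transporters outside the family, 16 were higher and 20 lower in libraries labelled P deficiency at day 4, and 14 and 19 at day 7, with medians of -0.10 and -0.18 on the log2 scale against 0.02 and -0.02 for all genes. Sobic.010G146700, annotated as the amino acid transporter AVT1C, had 16.0 ± 2.92 and 12.8 ± 1.47 CPM in libraries labelled P deficiency at days 4 and 7, against 95.5 ± 2.26 and 97.0 ± 9.16 CPM in mock. Sobic.001G038500, annotated as the amino acid transporter ANT1, had 64.5 ± 14.0 CPM under P deficiency at day 4, against 1.52 ± 0.358 CPM in mock. A second AVT1C-type gene, Sobic.008G139500, had 0.106 ± 0.039 CPM under P deficiency at day 7, against 11.2 ± 4.17 CPM in mock.

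Of 20 tested auxin transport genes, 3 were higher and 6 lower at day 4, and 4 and 4 at day 7, with medians of -0.38 and -0.24. Sobic.003G327500, annotated as the efflux carrier PIN9, had 1.18 ± 0.25 and 4.64 ± 0.916 CPM in libraries labelled P deficiency, against 46.0 ± 6.62 and 91.9 ± 29.8 CPM in mock (log2 fold changes -5.27 ± 0.27 and -4.30 ± 0.25). Sobic.002G108800, annotated as PIN-LIKES 7, of a family of auxin carriers in the endoplasmic reticulum, had 29.3 ± 3.44 and 13.9 ± 2.18 CPM under P deficiency, against 0.591 ± 0.368 and 0.923 ± 0.145 CPM in mock. Of 91 tested genes of auxin conjugation and response, 12 were higher and 22 lower at day 4, and 12 and 23 at day 7, with medians of -0.09 and -0.20. Among them the auxin-amido synthetase GH3.8 (Sobic.001G331200) had 53.5 ± 5.0 CPM under P deficiency at day 4, against 19.7 ± 2.94 CPM in mock, and the small auxin-up gene SAUR72 (Sobic.010G224501) 1.34 ± 0.737 CPM against 13.1 ± 1.1 CPM. At day 7 IAA7 (Sobic.004G099600), a repressor of auxin signalling, had 34.7 ± 6.05 CPM under P deficiency, against 3.53 ± 0.824 CPM in mock, and the auxin response factor ARF6 (Sobic.004G051900) 150.0 ± 19.0 CPM, against 42.6 ± 5.26 CPM.

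Of 55 tested secondary wall genes, 3 were higher and 36 lower in libraries labelled P deficiency at day 4, where 20.3% of all genes were higher and 18.4% lower, with a median log2 fold change of -1.22 against 0.02 for all genes. At day 7, 5 were higher and 30 lower, where 17.4% and 18.2% of all genes were, with a median of -0.94 against -0.02. Laccase-10 (Sobic.001G422300), a lignin-polymerising type of enzyme, had 0.178 ± 0.113 CPM under P deficiency at day 4, against 89.3 ± 17.1 CPM in mock. COBRA-like 5 (Sobic.001G336700) had 17.4 ± 3.47 and 11.0 ± 3.15 CPM under P deficiency at days 4 and 7, against 127.0 ± 4.46 and 135.0 ± 12.9 CPM in mock, and the fasciclin-like protein FLA11 (Sobic.003G062000) 11.8 ± 0.639 CPM at day 7, against 103.0 ± 18.0 CPM.

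With GR245DS, 1 of 69 tested amino acid transporters and 1 of 88 tested genes of auxin conjugation and response passed, each higher at both times. Of 19 tested auxin transport genes and 56 tested secondary wall genes, 0 passed at either time. In the same fit, without a replicate term, 1.01% of all genes passed at 3 h and 0.484% at 6 h. Lists of this size are too small for counts of 0 or 1 to be read against such shares. The lists' medians lay between -0.28 and 0.24 on the log2 scale, against -0.02 and -0.03 for all genes. Sobic.004G296400, annotated as the chloroplast cationic amino acid transporter CAT9, had 136.0 ± 22.9 and 117.0 ± 8.54 CPM with GR245DS at 3 h and 6 h, against 49.4 ± 4.72 and 52.2 ± 3.79 CPM in mock (log2 fold changes 1.46 ± 0.15 and 1.16 ± 0.15, SE; edgeR adjusted p = 0.00122 and 0.00463). IAA25 (Sobic.007G009300), another such repressor, had 10.1 ± 1.38 and 9.6 ± 0.368 CPM with GR245DS, against 3.98 ± 0.366 and 3.21 ± 1.13 CPM in mock (1.34 ± 0.26 and 1.58 ± 0.26, adjusted p = 0.0354 and 0.0229).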

How the data were processed

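The authors deposited 2 tables, each with a raw count and an FPKM per gene and library, per the file headers. Per the labels' protocols, RNA came from the RNAprep Pure Plant Kit, with an input of 1 µg. The submitters' processing notes name fastp, HISAT2, featureCounts and DESeq2 1.22.1. Build and strandedness: not given in the sources used here.

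The counts were analysed in R 4.3.3 with edgeR 4.0.16: TMM scaling, filterByExpr, a robust quasi-likelihood fit of all 12 libraries of a table with 1 mean per group, and Benjamini-Hochberg adjustment over all tested genes (threshold 0.05). CPM came from the cpm function of edgeR (TMM-scaled library sizes), and folds are ratios of mean CPM. A fold against 0 counts uses a floor of 3 counts per library, which covers counting error only. The authors' FPKM served for levels between genes, the family's sums and each member's share of them, and entered no test.

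Alternatives were RLE or total-count scaling, no filter, DESeq2 1.42.0, fits of 2 groups, a replicate block, a 2-fold minimum and leaving out each library. Same-numbered libraries deviated together in the GR table (r 0.136 to 0.838 over 18 pairs) but not in the P table (r -0.503 to 0.644). Blocked values therefore stand beside the main GR results of the members. The lists were counted only in the fit without the block. No library was a duplicate of another.

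The family was picked as the subject, and the lists were set, with earlier results of these data known; which genes are members follows from the annotation alone. Named were the marker, the 5 members with the smallest adjusted p in each direction and treatment comparison (the higher group averaging 1 CPM or more), up to 3 called members of each mock or interaction comparison, the 4 with the highest FPKM in each table, and 2 genes per list and comparison. Other members were named after their values were seen. Of the 55 members, 49 matched a RefSeq symbol (Sorghum_bicolor_NCBIv3, used for names and neighbours): 17 lie in 6 runs with at most 1 gene between, and 4 share a symbol with another member.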

Additional observations from a re-analysis of the deposited data

How the results depend on the processing

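Under the other settings, the members called in the P table at days 4 and 7 stayed within 1.5 times the reported counts: leaving out 1 library gave 20 to 24 members at day 4 and 23 to 26 at day 7. For 38 results of the named members, 643 of 685 alternative values kept direction and side of the threshold, 42 lost the threshold and 0 reversed. Some named members gained a call in an alternative. With GR245DS these were Sobic.004G002901 (2 of 19 alternatives) and Sobic.010G258300 (1 of 19) at 3 h, and Sobic.001G351900 (1 of 19) at 6 h. In the P table Sobic.001G502700, Sobic.002G322800, Sobic.002G207500 and Sobic.009G006300 each gained a call at day 7 in 1 of 18. Sobic.009G181700 gained a call at day 4 in 2 of 18. For mock at day 7 against day 4, Sobic.010G006700 did so in 2 of 18, and Sobic.001G160800 and Sobic.002G322800 in 1 of 18 each. The calls of Sobic.002G207700 and Sobic.004G003300 are given above. The numbers do not pair the libraries of the P table, and with the replicate block its member counts were 23 and 25.

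Over all genes of the P table, a 2-fold minimum gave 4682 genes at day 4 and 4492 at day 7, and leaving out 1 library 7174 to 10394 and 7175 to 10152. The interaction gave 416 genes with DESeq2, 71 with the replicate block and 58 to 180 without 1 library, with 0 members in each. For mock at day 7 against day 4, members numbered 6 with DESeq2, 1 with total counts, 0 in the fit of 2 groups, 0 with a 2-fold minimum and 0 to 4 without 1 library; all genes numbered 862 with DESeq2, 176 in the fit of 2 groups, 210 with a 2-fold minimum and 66 to 743 without 1 library.

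For GR245DS at 3 h, members numbered 2 with the replicate block and 1 with replicates 1 and 2 alone (an alternative chosen after seeing the data); all genes numbered 587 with DESeq2, 100 in the fit of 2 groups, 777 with the block and 122 to 304 without 1 library. At 6 h, the block gave 1 member and 509 genes, DESeq2 329 genes, and leaving out 1 library 52 to 152. Mock at 6 h against 3 h gave 5 genes with DESeq2. Leaving out 1 library gave 0 members in each GR comparison. Total-count scaling moved the median log2 fold change of all genes at 3 h to -0.15, against -0.02. The causes were not tested. In the fits without the block the common dispersion was 0.136 in the GR table and 0.0408 in the P table.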
